A study of Arabidopsis thaliana with 6 samples.

Results

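SESA1 (AT4G27140), SESA2 (AT4G27150), SESA3 (AT4G27160) and SESA4 (AT4G27170) encode 2S albumins, small sulphur-rich storage proteins of the Arabidopsis thaliana seed. The 4 genes lie next to each other on chromosome 4, with no other protein-coding gene between them in the RefSeq annotation. They were chosen by family membership and with the mutant and wild-type readings of these arrays known, among them the low SESA4 reading in the mutant. The mutant and wild-type values below are therefore a description of the 4 genes. Intervals and calls given for them come from the fit across all probe sets and only place them in it, since they were chosen with these values known. Each gene has 1 of the 22746 probe sets tested: 253904_at for SESA1, 253894_at for SESA2, 253895_at for SESA3 and 253902_at for SESA4. The fifth gene of the family, SESA5 (AT5G54740), was paired with no probe set and was not analysed here.

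Storage proteins are made while the embryo matures, packed into protein storage vacuoles, and broken down as the seedling starts to grow. A 2S albumin is made as 1 precursor chain, which proteases of the vacuole cut into a small and a large subunit held together by disulfide bonds. During maturation the genes are switched on by B3-domain factors such as ABI3, FUS3 and LEC2 together with bZIP factors. After germination they are kept off by repressors that include VAL proteins and Polycomb complexes. Their transcripts are abundant in the dry seed, so the amount in an imbibed seed holds what was stored at maturation as well as what was made or lost since.

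Total RNA of whole seeds was hybridised to 6 Affymetrix arrays, 3 from wild-type Columbia-0 (Col-0) seeds and 3 from seeds of a mads-box mutant in the same ecotype, which the series title names agl67. AGL67 is a MADS-box transcription factor. The mutant allele is not given in the sources used here. Seeds of both genotypes were kept in water for 3 days at 4 °C in the dark, a cold treatment (stratification) that breaks dormancy, and were then moved into light at 22 °C, with abscisic acid (ABA) at 5 µM, for 3 hours. ABA is a hormone that holds back germination. Every sample had ABA, so the arrays hold no comparison with untreated seeds. The labels call the samples biological replicates and do not say whether they came from separate plants or harvests.

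The values are log2 expression readings, and a difference of 1 is a change of 2-fold. AGL67 itself read 8.79, 8.25 and 8.78 on the wild-type arrays and 4.15, 4.30 and 3.66 on the mutant arrays, in the direction its label gives (limma adjusted p = 0.000887). The third wild-type array stood apart from the others. Its median reading was 3.80 against 3.97 to 4.00 on the other arrays, and it correlated with the other wild-type arrays at 0.980 and 0.983, while these correlated with each other at 0.994. The gap between the 3′ and 5′ probe sets of the actin control was 4.18 on that array and 3.18 to 3.59 elsewhere in 1 pair of probe sets, and 0.80 against 0.47 to 0.65 in the other. The GAPDH and ubiquitin gaps on that array did not lie above the range of the other arrays, and the second GAPDH gap lay below it, with 1.07 (0.95 to 1.29 elsewhere) and -0.31 (-0.21 to -0.01) for GAPDH and 1.10 (0.98 to 1.16) and -0.60 (-0.73 to -0.55) for ubiquitin. Results for the storage genes are given with and without that array.

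SESA4 had far lower readings in the mutant. It read 10.67, 10.64 and 10.98 on the wild-type arrays and 9.16, 8.23 and 9.16 on the mutant arrays. All 3 mutant readings lay below all 3 wild-type readings, and the gap between the groups, 1.48, was larger than the range within either group (0.34 in wild type and 0.93 in the mutant). The means were 10.76 ± 0.19 and 8.85 ± 0.54 (SD, n = 3 each), a log2 difference of -1.91 (SE 0.26, 95% interval -2.51 to -1.32). This corresponds to a reading 3.77-fold lower, with an interval of 2.49-fold to 5.71-fold, or 26.5% of the wild-type reading. In whole seeds, fewer cells that hold a transcript and less transcript per cell cannot be told apart.

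SESA1 showed a much smaller difference. Its readings were 10.43, 10.26 and 10.60 in wild type and 10.10, 9.61 and 10.15 in the mutant. The groups did not overlap, but the gap between them was 0.11, less than the range within wild type (0.34) or the mutant (0.54). The log2 difference was -0.48 (SE 0.17, 95% interval -0.87 to -0.08), a mutant reading at 71.9% of that in wild type.

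SESA2 read 9.63, 9.42 and 9.60 in wild type and 9.44, 8.59 and 9.29 in the mutant. The groups overlapped, since the first mutant array read slightly above the second wild-type array. The second mutant array was far below the other 5. The log2 difference was -0.45 (SE 0.22), and its 95% interval, -0.95 to 0.06, holds both no difference and a mutant reading at 51.6% of the wild-type reading.

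SESA3 read 12.78, 12.66 and 12.99 in wild type and 12.65, 12.41 and 12.78 in the mutant. The groups overlapped, and the third mutant array matched the first wild-type array. The log2 difference was -0.19 (SE 0.14, 95% interval -0.52 to 0.13). This interval does not reach a mutant reading below 69.9% of that in wild type. SESA3 gave readings near the top of the scale: its highest reading was 0.97 below the lowest of the 6 array maxima, against 2.98 for SESA4, 3.36 for SESA1 and 4.33 for SESA2. Whether high readings compress differences was not tested.

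**Figure D1:**
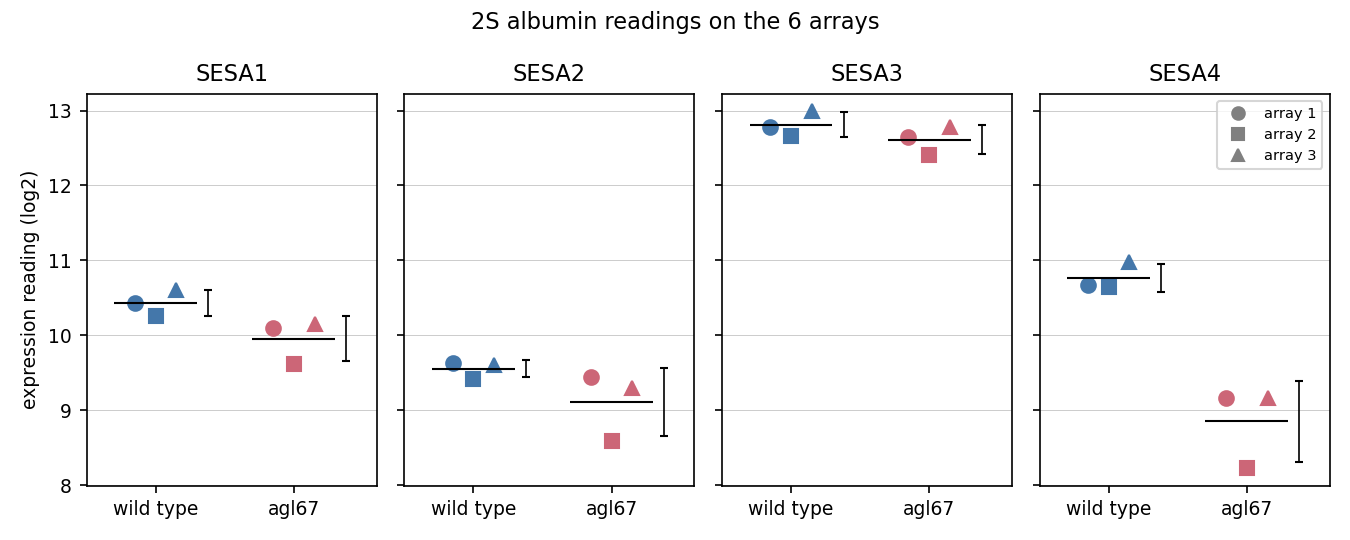
Log2 expression readings (vertical axis) of SESA1, SESA2, SESA3 and SESA4 on the 3 wild-type arrays (blue) and 3 agl67 mutant arrays (red). Symbols give the array number, horizontal lines the group means and bars the SD (n = 3). The mutant points of SESA4 lie 1.48 or more below its wild-type points, and the second mutant array is the lowest point for all 4 genes.

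All 4 differences were below 0, as were those of 45.1% of all probe sets tested. Of the 4 genes, SESA4 alone was called lower in limma at an adjusted p under 0.05. In the same fit 0.778% of all probe sets were called lower and 1.93% higher. The mutant readings lay wholly below the wild-type readings for SESA1 and SESA4, as they did for 9.16% of all probe sets. A difference at or below that of SESA4 was found in 3 probe sets (0.0132%), SESA4 included, while 2.82% of probe sets had one at or below that of SESA1, 3.28% at or below that of SESA2 and 14.9% at or below that of SESA3. These shares place the genes on the scale of this contrast and are no support for it, since the genes were chosen with it known.

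Without the third wild-type array the log2 differences were -0.39 for SESA1, -0.42 for SESA2, -0.10 for SESA3 and -1.81 for SESA4, and the calls were as with all arrays. SESA4 was called in 3 of the 6 fits that left out 1 array. The call was lost when the second wild-type array (log2 difference -1.98) was left out, and likewise for mutant array 1 (-2.07) and mutant array 3 (-2.07). In these 3 fits the difference was larger than with all arrays. Of all probe sets 54, 36 and 18 were called lower in them, against 177 with all arrays. The fits that kept the call lacked wild-type array 1, wild-type array 3 or mutant array 2. They had 133, 653 and 21 probe sets called lower. In the authors' deposited table the log2 ratios were -0.50 for SESA1, -0.45 for SESA2, -0.20 for SESA3 and -1.88 for SESA4, and of these only SESA4 had a false discovery rate under 0.05, as 0.69% of all probe sets had with a lower value in the mutant.

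**Figure D2:**
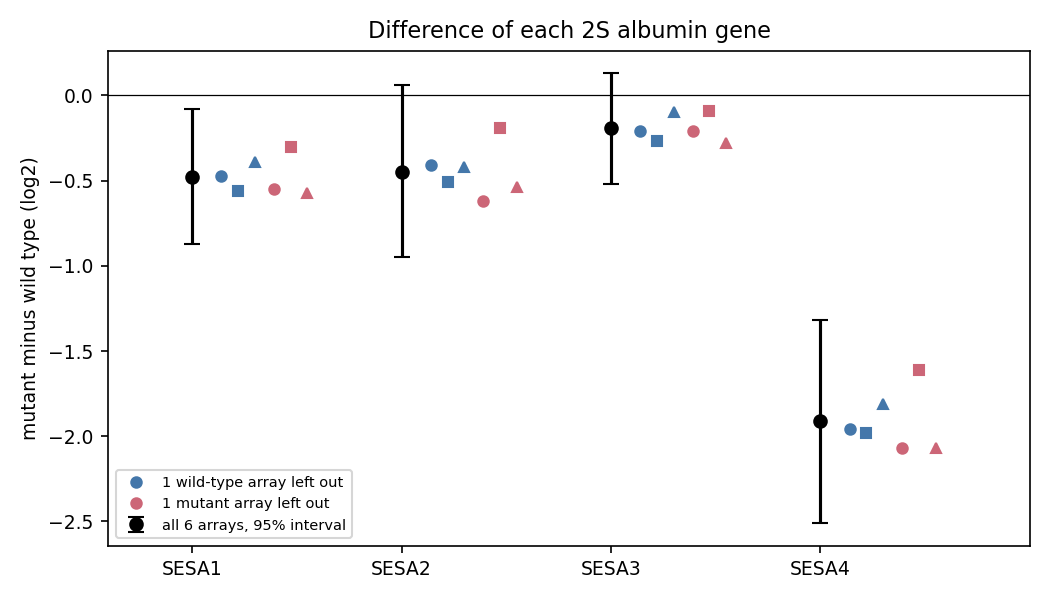
Log2 difference, mutant minus wild type (vertical axis), of each 2S albumin gene. Black points and bars are the fit to all 6 arrays with its 95% interval, and coloured points are the fits with 1 wild-type array (blue) or 1 mutant array (red) left out, with the symbol giving the number of that array (circle 1, square 2, triangle 3). The SESA4 interval, -2.51 to -1.32, lies below those of the other genes, whose lowest bound is -0.95.

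A second view sets the genes against each other on the same array, which removes any shift that an array gives to all of them alike. A reading depends on its probe set, so only the change of such a gap between arrays is of use, not the gap itself. The SESA4 reading minus the SESA1 reading was 0.24, 0.38 and 0.38 on the wild-type arrays and -0.94, -1.38 and -0.99 on the mutant arrays, a shift of -1.44. Minus SESA2 it was 1.04, 1.22 and 1.38 in wild type and -0.28, -0.36 and -0.13 in the mutant, a shift of -1.47. Minus SESA3 it went from a mean of -2.05 ± 0.05 to -3.77 ± 0.37 (SD, n = 3 each), a shift of -1.72. In each of these pairs the groups did not overlap. These gaps restate the readings with which the genes were chosen and are a description too.

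Among the other 3 genes the gaps moved less. SESA1 minus SESA2 was 0.80, 0.84 and 1.00 in wild type and 0.66, 1.03 and 0.86 in the mutant, a shift of -0.03 with the mutant values on both sides of the wild-type ones. SESA1 minus SESA3 shifted by -0.28, from -2.38 ± 0.03 to -2.66 ± 0.13 (SD, n = 3 each), with no overlap between the groups. SESA2 minus SESA3 shifted by -0.25, from -3.26 ± 0.12 to -3.51 ± 0.31, and the groups overlapped. The 4 genes are related in sequence and the probe sequences were not used here, so how far a probe set of 1 gene also reads transcripts of another was not tested.

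**Figure D3:**
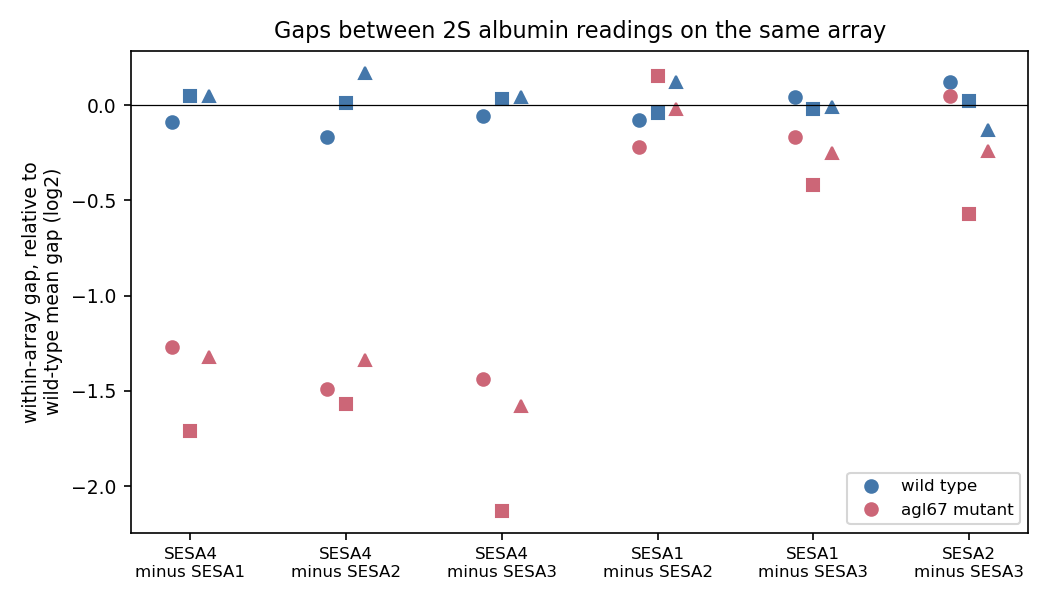
Gap between the log2 readings of a pair of 2S albumin genes on the same array, minus the mean gap of the wild-type arrays (vertical axis), for all 6 pairs of genes. Blue is wild type, red is agl67 mutant and symbols give the array number (circle 1, square 2, triangle 3). Red points stand far below blue ones in the 3 pairs with SESA4, where the shifts are -1.44, -1.47 and -1.72, and nearer to them in the pairs without it.

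The genes also shared a pattern between replicates of the mutant. On the second mutant array each of the 4 read lower than on the other mutant arrays, as did 36.0% of all probe sets. SESA4 was 0.93 lower there than the mean of mutant arrays 1 and 3, which both read 9.16. For SESA2 that drop was 0.78, for SESA1 0.51 and for SESA3 0.31, while the median over all probe sets was -0.01. A drop as large as that of SESA4 was found in 3 of the 22746 probe sets, as large as that of SESA2 in 6, as large as that of SESA1 in 83 (0.365%) and as large as that of SESA3 in 4.33%. In wild type the replicates were closer. SESA1, SESA3 and SESA4 were highest on the third wild-type array, as were 23.3% of all probe sets. They stood 0.26, 0.28 and 0.33 over the mean of the other 2, while the median over all probe sets was 0.14 lower there.

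This pattern weighed on the differences between genotypes. Against the wild-type mean, mutant arrays 1 and 3 averaged -0.30 for SESA1, -0.19 for SESA2, -0.09 for SESA3 and -1.61 for SESA4, and the second mutant array stood at -0.82, -0.97, -0.40 and -2.53. The SESA2 difference thus rested largely on the second mutant array, while SESA4 was low on every mutant array. The 3′ to 5′ control gaps on that array were 3.38 and 0.47 for actin, 1.03 and -0.17 for GAPDH and 1.16 and -0.55 for ubiquitin. Its second actin gap was the lowest of the 6 arrays and both ubiquitin gaps were the highest, and their part in the lower readings was not tested. The spread left after removing the genotype means was 0.24 for SESA1, 0.33 for SESA2, 0.18 for SESA3 and 0.40 for SESA4 (SD on the log2 scale), each above the median of 0.12 among the 2738 probe sets with a mean reading over 8.

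The nearest genes on the chromosome did not show the low reading of SESA4. Of the 10 protein-coding genes on either side of the cluster, 15 of 20 were paired with a probe set, of which 1 rose, 0 fell and 14 did not pass in limma, beside 2.7% of all probe sets called in either direction. Their median log2 difference was 0.09, and 4 of 15 were below 0. The gene before SESA1, AT4G27130, which the authors' table calls a translation initiation factor of the SUI1 family, read 10.92, 10.88 and 10.97 in wild type and 11.12, 11.14 and 11.32 in the mutant (log2 difference 0.27, limma adjusted p = 0.250). The gene after SESA4, the kinesin gene ATK2, read 4.02, 3.71 and 3.85 against 3.85, 4.18 and 3.89 (0.11, limma adjusted p = 0.734). The gene that rose was WES1 (AT4G27260), 7 genes after SESA4, which encodes an enzyme of the GH3 family that joins auxin to amino acids. It read 4.04, 4.04 and 3.51 in wild type and 5.18, 5.06 and 4.94 in the mutant, a log2 difference of 1.20 (SE 0.17, limma adjusted p = 0.0145). Without the third wild-type array this was 1.02 and passed, and without any 1 of the mutant arrays (1.14 to 1.26) it did not pass.

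**Figure D4:**
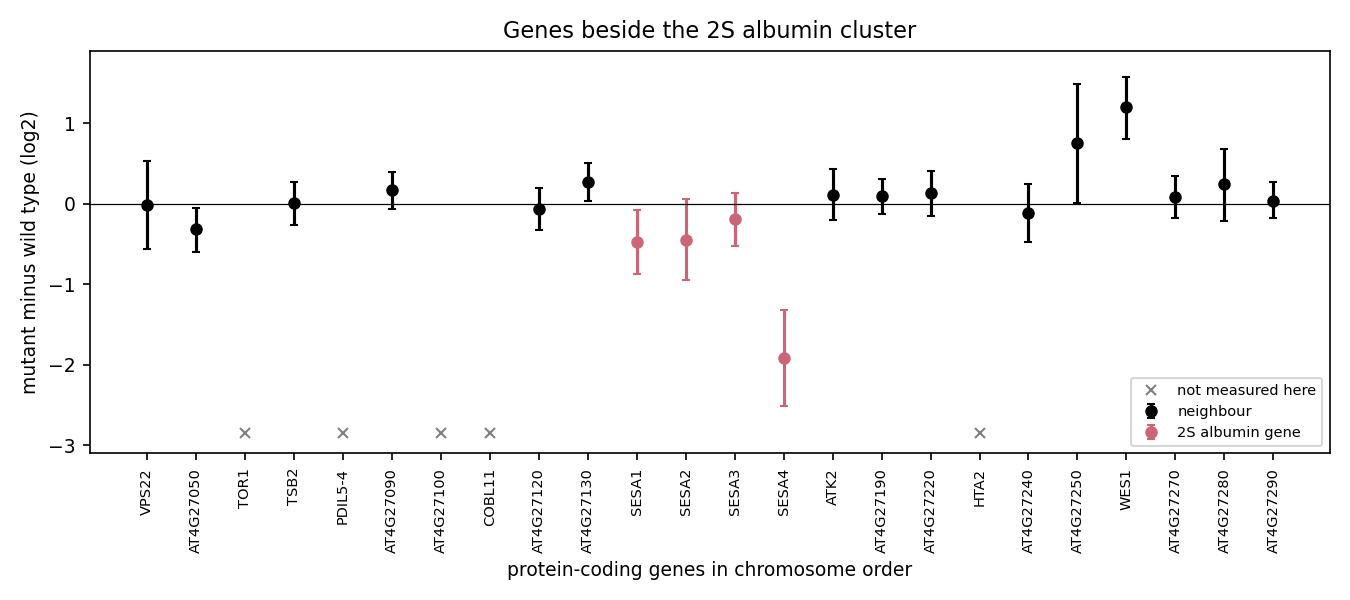
Log2 difference, mutant minus wild type, with its 95% interval (vertical axis) for the 2S albumin genes (red) and the 10 protein-coding genes on each side of them (black), in chromosome order (horizontal axis, not to distance). Crosses at the bottom mark genes not measured here. SESA4, at -1.91, is the lowest of the 19 genes with a value, and WES1, at 1.20, the highest.

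Likeness of pattern was measured as the root-mean-square difference between readings on the 6 arrays, each gene centred on its own mean. Among the 4 genes SESA1 and SESA2 were closest, at 0.124, followed by SESA1 and SESA3 at 0.160 and SESA2 and SESA3 at 0.230. SESA4 was 0.735 from SESA1, 0.743 from SESA2 and 0.887 from SESA3. The median over all probe sets was 0.36 from SESA1, 0.39 from SESA2 and 0.26 from SESA3. These distances include the difference between genotypes with which the genes were chosen. The profile of SESA1 was nearest to those of AT2G19710 (0.074), AT3G15590 (0.082) and AT3G58550 (0.102), the last a gene that the authors' table places in the family of protease inhibitors, seed storage and lipid transfer proteins. For SESA2 the nearest was SESA1, then AT2G19710 (0.142) and the aspartyl protease gene AT3G50050 (0.147). For SESA3 GRP14, a gene for a glycine-rich protein, and AT3G21000 were nearest (both 0.026), then the zinc finger gene GIS (0.034). These 3 gave readings of 2.58 to 4.04, near or below the array medians, so the likeness is one of small differences between arrays and not of level. AT3G58550 (2.55 to 3.51) and AT3G50050 (3.59 to 4.37) also gave low readings.

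The nearest profile to SESA4 was that of AT4G20320, a CTP synthase gene, at 0.212, where the median over all probe sets was 1.04. It read 5.89, 5.79 and 5.74 in wild type and 4.48, 3.66 and 4.39 in the mutant, a likeness by which it was picked. The chitinase gene AT2G43590 (0.261) and AT1G27030 (0.312), which the authors' table calls an expressed protein, came next. They read lower in the mutant by about as much, with log2 differences of -1.78 and -1.70, a likeness by which they too were picked. They differed less between mutant arrays, by ranges of 0.36 and 0.24 against 0.93 for SESA4.

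Other storage proteins gave a frame for the albumins. Of 10 listed cruciferin and vicilin-like (cupin) genes 9 were measured, of which 2 fell, 1 rose and 6 did not pass in limma, where 0.778% of all probe sets were called lower and 1.93% higher. Their median log2 difference was -0.20, against -0.46 for the 4 albumins and 0.02 for all probe sets, and 7 of 9 were below 0. CRU2, a gene for the 12S globulin cruciferin, read 13.05, 13.04 and 13.36 in wild type and 12.52, 12.41 and 12.60 in the mutant (log2 difference -0.64, limma adjusted p = 0.0432). AT1G03890, a cupin gene, went from 10.75 ± 0.16 to 10.02 ± 0.16 (SD, n = 3 each), a difference of -0.73 (limma adjusted p = 0.0333). The vicilin-like gene AT4G36700 rose by 0.51 (limma adjusted p = 0.0405). When the third wild-type array was left out, CRU2 (-0.54), AT1G03890 (-0.65) and AT4G36700 (0.49) still passed. When any other array was left out they did not, except AT1G03890 in the fit lacking wild-type array 1 (-0.82). The drop on the second mutant array was smaller here than in SESA1, SESA2, SESA3 and SESA4, at 0.15 for CRU2 and 0.27 for AT1G03890, the largest of the 9.

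**Figure D5:**
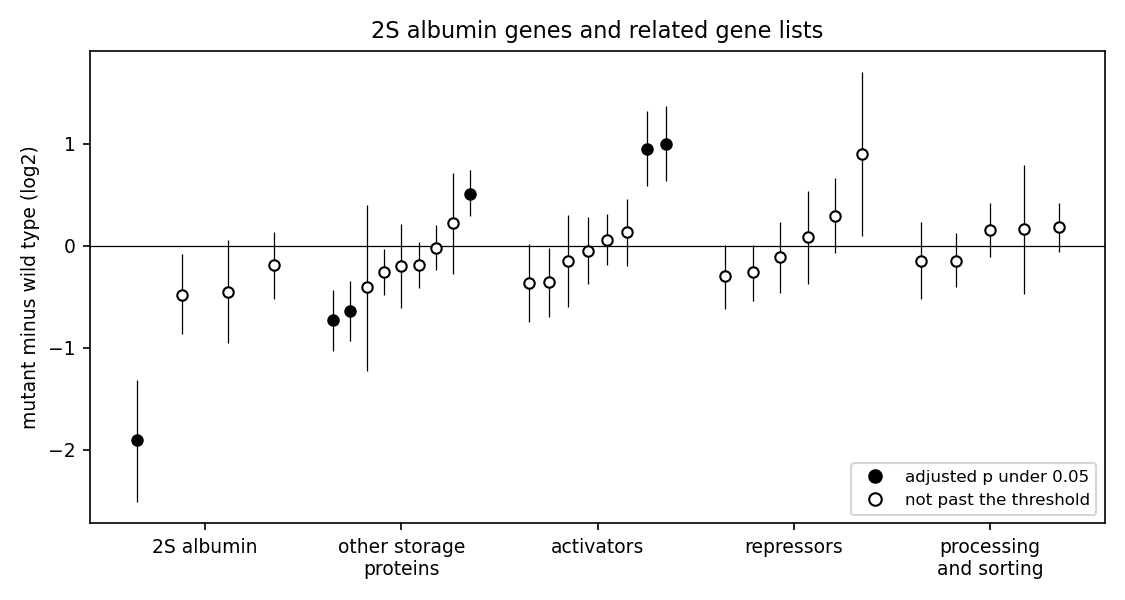
Log2 difference, mutant minus wild type, with its 95% interval (vertical axis) for each measured gene of the 2S albumin family and of the lists of other storage proteins, activators and repressors of storage genes, and processing and sorting of storage proteins. Filled points passed an adjusted p of 0.05 in limma. SESA4, at -1.91, is the lowest point of the plot, and the filled points among the genes listed as activators, ABI4 and EEL, lie at 0.95 and 1.00.

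Genes listed as acting on storage protein genes or on the proteins they encode were followed too. These lists, like the other gene lists here, were chosen with earlier results of these data known. The counts and calls in them are therefore a description. Of 13 genes listed as activators 8 were measured, of which 2 rose, 0 fell and 6 did not pass (median 0.00). Of all probe sets 1.93% were called higher and 0.778% lower. The rises were in ABI4, an AP2-type factor of ABA responses, and the bZIP gene EEL, by 0.95 (limma adjusted p = 0.0284) and 1.00 (limma adjusted p = 0.0226). Whether EEL acts as an activator of storage genes was not tested. In the authors' deposited table EEL, at 0.93, did not pass (limma false discovery rate 0.0564), while ABI4, at 0.91, did (0.033). In the 6 fits that left out 1 array ABI4 passed when wild-type array 1 (1.09) or wild-type array 3 (0.81) was omitted and EEL when wild-type array 3 was (0.99). ABI3, the B3-domain factor that activates storage genes, read 8.70, 8.98 and 9.08 in wild type and 8.35, 8.61 and 8.71 in the mutant (log2 difference -0.36, limma adjusted p = 0.272). FUS3 was not among the measured activators. None of 6 measured repressors of 16 listed passed in limma (median -0.02), and no VAL gene was among these 6. The smallest p-values were those of the Polycomb genes FIE, with 0.90 (limma adjusted p = 0.258), and SWN, with -0.30 (limma adjusted p = 0.327). FIE read 5.92, 6.24 and 4.80 in wild type, lowest on the third array, and 6.58, 6.78 and 6.29 in the mutant. None of the 5 measured genes of 16 listed for processing and vacuolar sorting passed either (median 0.15). Of these, the vacuolar processing enzyme genes DELTA-VPE, with 0.18, and GAMMA-VPE, with 0.15, had the smallest p-values (limma adjusted p = 0.434 and 0.562). DELTA-VPE gave low readings of 2.64 to 2.97, below the array medians, and GAMMA-VPE read 8.82 to 9.21.

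Markers of seed tissues did not pass the threshold in limma. The measured embryo markers of the dry seed, 3 of 5 listed, had mean readings of 13.25 to 13.44 on the wild-type arrays and 13.20 to 13.37 on the mutant arrays, with EM1 at a log2 difference of 0.13 and CRA1 at -0.26. Of 6 listed endosperm markers 2 were measured, EXPA2 with 0.84 (limma adjusted p = 0.127) and MFT with 0.04. Both read lowest on the second mutant array among the mutant arrays, beside 36.0% of all probe sets. So did all 3 measured embryo markers and 6 of the 9 other storage protein genes, with CRA1 counted in both lists. On that array the endosperm markers EXPA2 and MFT stood at -0.46 and -0.34 against the mean of mutant arrays 1 and 3. The embryo markers EM1, CRA1 and EM6 stood at -0.25, -0.07 and -0.03. Of 5 seed coat markers 2 were measured, TT12 with -0.16 and BAN with -0.09, their readings did not exceed 4.39, and 0 of 2 read lowest on the second mutant array. The part of tissue makeup in the SESA4 reading was not tested.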

How the data were processed

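RNA of 3 wild-type and 3 agl67 mutant seed samples was hybridised to 1 array each. Values deposited by the authors are log2 expression levels, 1 for each probe set on each array. RMA and limma are named, with no version, in the submitters' processing notes. A second deposited table gives the authors' log2 ratios of mutant over wild type, their p-values and their false discovery rates (limma, per the file headers). Its 6 columns of values per array were not used. Values were analysed without further scaling, and 64 probe sets for controls were not tested.

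Probe sets were paired with genes by the platform table (13436), or by gene names in the authors' table found in RefSeq TAIR10.1 (1817, among them the 4 albumins by their titles). Pairs from names had to lie on the same chromosome as 1 or more of the 10 closest probe sets, by number, that the platform table names. Where a gene had several probe sets, that with the highest mean was used. R 4.3.3 with limma 3.58.1 gave the fit (lmFit and eBayes, genotype as the only term), with Benjamini-Hochberg adjustment over 22746 probe sets and a threshold of 0.05, and was tested on simulated data. P-values set the genotype difference of a probe set against the spread between these samples, moderated by that of all probe sets. Which variation this spread covers is not known, since the labels do not give the origin of the replicates. The number of arrays limits precision.

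The members and the 8 gene lists were chosen with earlier results of these data known. Named genes were the albumins, AGL67 and ABI3, list members past the threshold or else the 2 with the smallest p-values, and the 3 nearest profiles of each albumin. The chromosome neighbours were added after values were seen. No sequence is printed, since none was given in the sources used here.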

Additional observations from a re-analysis of the deposited data

How the results depend on the processing

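SESA1, SESA2, SESA3 and SESA4 were below 0 in all 13 alternative fits and in the authors' deposited table. The replicate block, the intensity trend, robust eBayes and leaving out the dimmest 40% of probe sets cannot change these differences. Their signs in those fits were thus fixed in advance by the main fit. The other fits reuse the arrays with which the genes were chosen. SESA1, SESA2 and SESA3 were called in none of the 13, and SESA4 in 10. With 1 array left out the log2 differences ran from -0.57 to -0.30 for SESA1, -0.62 to -0.19 for SESA2, -0.28 to -0.09 for SESA3 and -2.07 to -1.61 for SESA4, and from -4.75 to -4.39 for AGL67, which passed in each of these fits. The number of probe sets called was 615, between 86 and 1530 with 1 array left out (227 without the second wild-type array, 1530 without the third, and 117, 93 and 86 without mutant arrays 1, 2 and 3), 1490 with array weights, 1042 after renewed quantile normalization, 900 with array medians subtracted and 512 in the authors' deposited table. The cause of the larger counts was not tested. Of the calls 28.8% were lower in the mutant, against 43.1% after renewed quantile normalization and 42.7% without the third wild-type array. The median of the other storage genes was -0.30 after renewed quantile normalization and -0.27 with array medians subtracted, that of the activators -0.05 and -0.06, and that of the repressors -0.19 after quantile normalization. With 1 array left out these medians ran from -0.25 to -0.15 for the other storage genes, -0.09 to 0.05 for the activators, -0.13 to 0.10 for the repressors and -0.06 to 0.17 for processing and sorting. The labels do not say that the replicate numbers pair the arrays. Deviations from the group means of same-numbered arrays correlated at -0.158, 0.145 and 0.217. The first wild-type array correlated best with the second mutant array (0.337). These values cannot show whether arrays were paired, since the deviations within a genotype sum to 0 for each probe set. With the replicate number as a block 443 probe sets were called, among them SESA4 (-1.91), while CRU2 (adjusted p = 0.0604), AT1G03890 (0.0569), AT4G36700 (0.107) and ABI4 (0.0532) did not pass. AT4G36700 also did not pass with array medians subtracted (0.0542). The number of arrays, 3 per genotype, limits the precision.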
